A study of Sus scrofa with 6 samples.

Results

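Mitochondrial ribosomal protein genes were described in single pig oocytes. The members were the genes whose pig symbol, looked up from the NCBI gene ID, began with MRPL or MRPS followed by a digit. They numbered 70 of the 19300 genes listed in at least 1 oocyte, with 0 used wherever an oocyte's file did not list a gene. By their place in the ribosome, 45 belong to the large subunit and 24 to the small subunit. MRPS30 and MRPS18A carry small-subunit symbols but sit in the large subunit and were counted there. MRPS36 is a component of the 2-oxoglutarate dehydrogenase complex and no ribosomal protein, and was counted in neither subunit. Another 7 genes with such symbols, MRPL23, MRPL34, MRPL41, MRPL57, MRPL58, MRPS12 and MRPS16, were not analysed here.

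The study compared 3 BCB-negative with 3 BCB-positive oocytes at the germinal vesicle stage, with 1 oocyte in each library. Brilliant cresyl blue, or BCB, is reduced by growing oocytes to a colourless form, so that oocytes keeping the colour are generally taken as fully grown. Cells were collected from antral follicles measuring 3 to 6 mm, were freed of cumulus cells and zona pellucida, and were lysed without maturation culture. The labels give no animal, strain, age or culture for any oocyte, so each class was treated as 1 sample of 3 cells and differences are given without a test.

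Mitochondria keep their own ribosomes, which translate the few messages of the mitochondrial genome into membrane subunits of the respiratory chain. The ribosomal RNAs come from mitochondrial DNA, whereas every protein of the particle is encoded in the nucleus, made in the cytosol and imported. Some of these proteins descend from bacterial ribosomal proteins and others were added in mitochondria. A pig oocyte holds a large store of mitochondria, and several genes of this family are known causes of ovarian insufficiency in humans.

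Expected counts, which are read counts divided among transcripts by estimation, summed to between 7122749 and 9238987 per oocyte. The members together took between 72638 and 82477 of these, and counting intervals cover counting error only because the protocol names no molecular identifiers. BCB-positive oocyte 3 stood apart from the others. Its gene profile correlated with the other oocytes at a mean Pearson r of 0.874 on log2 values, against 0.905 to 0.915 for the rest. Over the members alone its mean Spearman rho was 0.855, against 0.919 to 0.938. Differences that rest on it are therefore given with and without it. Leaving it out changed the sign of the BCB-positive minus BCB-negative difference for 16 of the 67 members compared, all of them within 1.5-fold. All 10 oocyte markers had a mean of at least 1 FPKM (fragment counts corrected for transcript length and library size). ZP3 lay between 5602 and 18993 FPKM. NLRP5 had a mean of only 1.06 FPKM and was at 0 in BCB-negative oocyte 2. Markers of cumulus and granulosa cells summed to between 20.02 and 31.1 FPKM in BCB-negative oocytes, compared with 26.8 to 36.0 FPKM in the BCB-positive class. Of those 14 markers, 6 were listed under their symbol in no oocyte, FSHR and FOXL2 among them, and INHBA alone had a mean of 25.9 FPKM. Theca and stroma markers summed to at most 3.33 FPKM and blood cell markers to at most 3.76 FPKM. Of the 7 markers in each of these lists, 2 and 4 were listed under their symbol in no oocyte, HBB and HBA among them.

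Most members were abundant. In FPKM, which corrects for length, 31 members had a mean over the 6 oocytes of at least 100, 33 lay between 10 and 100, 3 between 1 and 10, and 3 below 1. The median of the 67 members with a mean of at least 1 FPKM was 96.6 FPKM, against 8.98 FPKM over the 11493 genes above that limit. Above the same limit, the median was 93.3 FPKM in the large subunit and 101 FPKM in the small subunit. Over all 45 and 24 genes the medians were 90.1 and 75.1 FPKM, so the order of the subunits depends on the low genes. Although the particle holds a single copy of nearly every protein, the mean FPKM of its genes ran from 0.232 to 1457, as the plot of all members by oocyte shows.

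**Figure D1:**
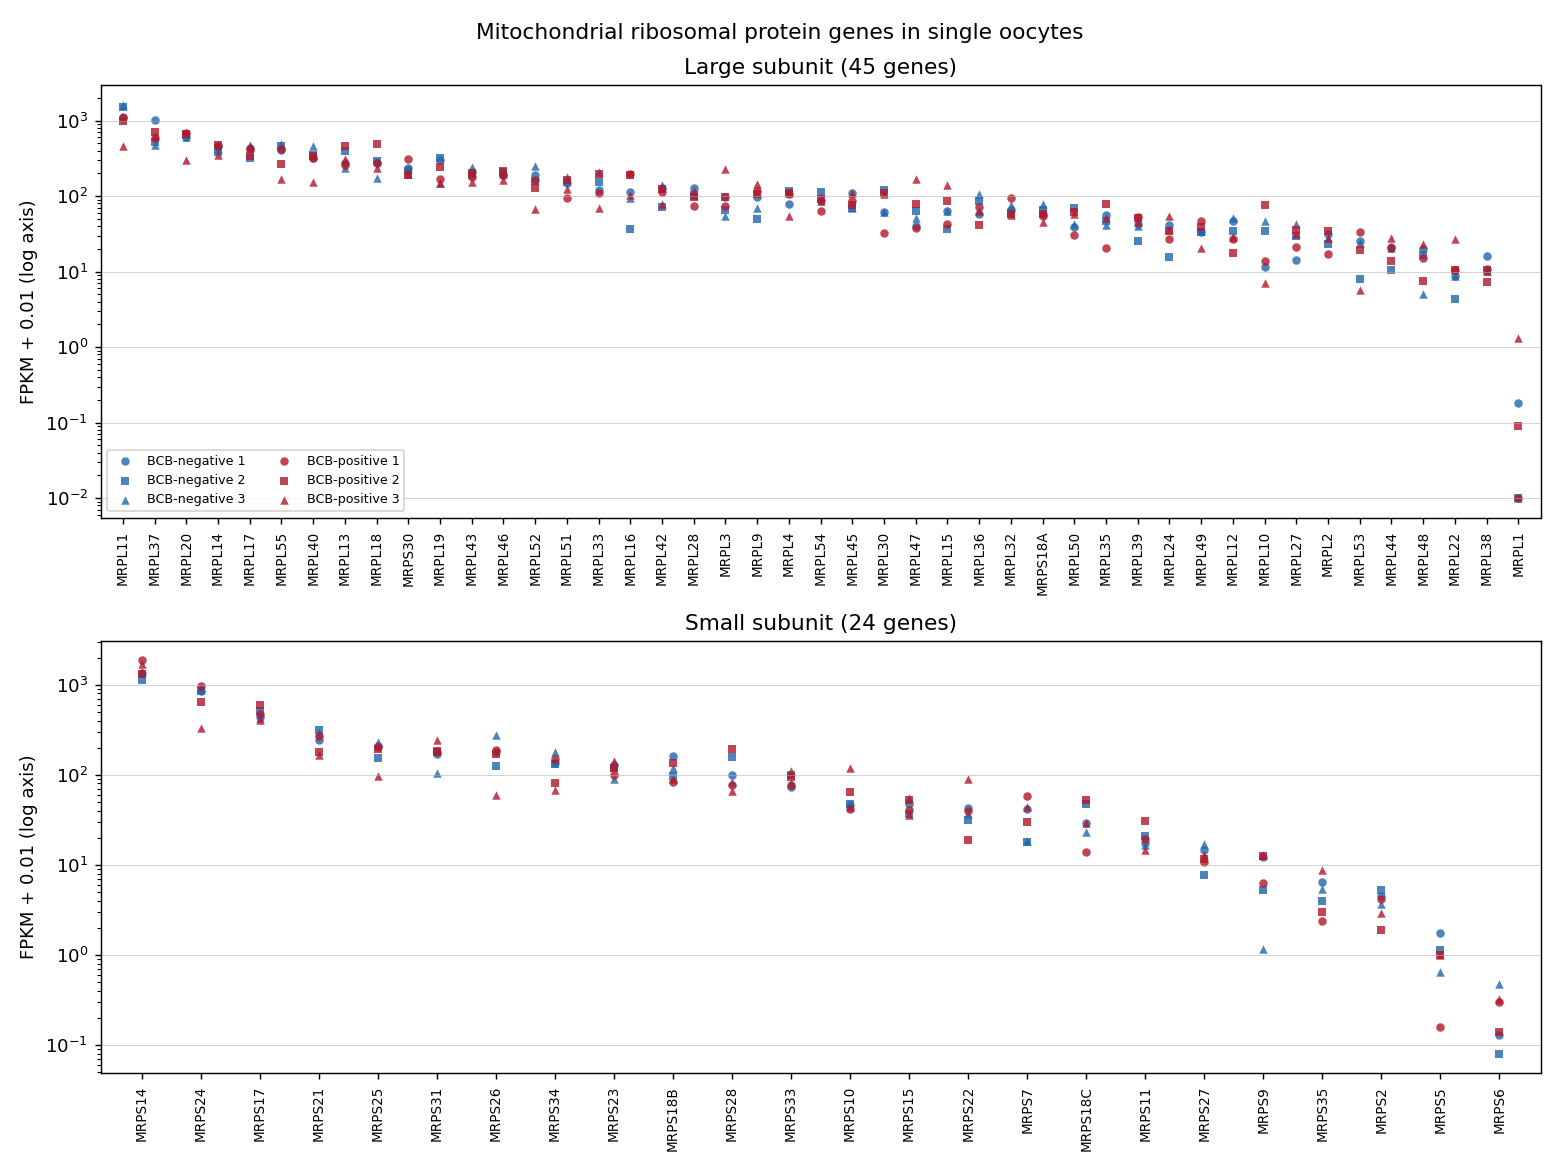
FPKM plus 0.01 on a log axis for each mitochondrial ribosomal protein gene in each of 3 BCB-negative (blue) and 3 BCB-positive (red) oocytes, ordered by mean within the large subunit (45 genes) and the small subunit (24 genes). The classes mix at nearly every gene, MRPS14 and MRPL11 lie at the top, and MRPL1, MRPS5 and MRPS6 lie at the bottom.

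Few genes carried much of each subunit's total. MRPS14, a protein of the small subunit's head, was the most abundant member, at 1356, 1130 and 1391 FPKM in oocytes 1, 2 and 3 of the BCB-negative class and 1871, 1313 and 1680 FPKM in oocytes 1, 2 and 3 of the BCB-positive class, the order kept below. The classes overlapped, and the mean log2(FPKM + 1) of BCB-positive oocytes exceeded that of BCB-negative oocytes by 0.32, with an SD between oocytes of a class of 0.22. Differences below have this direction and scale. MRPS24, which lies by the channel where messages enter, measured 860, 858 and 919 FPKM in the BCB-negative class and 971, 636 and 329 FPKM in the BCB-positive class. Its difference was -0.58, and -0.16 without BCB-positive oocyte 3. MRPS17 ranged from 404 to 596 FPKM and MRPS21 from 164 to 314 FPKM over all oocytes. Together these 4 genes held 67.2%, 68.6% and 68.6% of the small subunit's summed FPKM in the BCB-negative class, and 73.4%, 65.3% and 67.4% in the BCB-positive class.

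In the large subunit, the 4 most abundant genes were MRPL11, MRPL37, MRPL20 and MRPL14. MRPL37, a protein added in mitochondria, measured 1013, 520 and 481 FPKM in the BCB-negative class and 582, 718 and 624 FPKM in the BCB-positive class. BCB-negative oocyte 1 was the highest and the classes overlapped (difference 0.01, SD 0.43). MRPL20, a relative of a bacterial protein needed early in assembly of the large subunit, lay between 614 and 688 FPKM in 5 oocytes and at 303 FPKM in BCB-positive oocyte 3 (difference -0.27, and 0.12 without that oocyte). MRPL14, at the face where the subunits meet, lay between 354 and 469 FPKM. The 4 genes held 40.3%, 39.6% and 39.1% of the large subunit's sum in BCB-negative oocytes and 39.2%, 36.0% and 29.4% in BCB-positive oocytes. The last and lowest share was that of BCB-positive oocyte 3.

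At the other end, 3 members had a mean below 1 FPKM and were left out of the comparison between classes. MRPL1, the protein of the mobile side arm at the tRNA exit, was at 0 in 3 oocytes, at 0.17 FPKM in BCB-negative oocyte 1, and reached 0.08 and 1.33 FPKM in oocytes 2 and 3 of the BCB-positive class. MRPS6, a protein of the small subunit's platform, had a mean of 0.232 FPKM and MRPS5, which helps form the message entry channel, one of 0.937 FPKM. The next lowest were MRPS2 at 3.72 FPKM in the small subunit, and MRPL38 at 10.8 FPKM and MRPL22 at 11.6 FPKM in the large subunit. In the annotation, MRPL1 overlaps CNOT6L and MRPS6 overlaps SLC5A3, and 25 members in all overlap another gene. Whether the counting used strand is not given in the sources used here, so reads of such pairs cannot be told apart. MRPS6 was assigned a length of 5720 bases, and its FPKM depends on that length.

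The summed levels of the subunits did not separate the classes. Large-subunit FPKM summed to 7889, 7704 and 8063 in BCB-negative oocytes (mean 7885 ± 180, SD, n = 3 cells) and to 7279, 7899 and 5908 in BCB-positive oocytes (7029 ± 1019). Small-subunit FPKM summed to 4316, 4089 and 4433 (4279 ± 175) and to 4889, 4173 and 3825 (4296 ± 542). The classes overlapped in both sums, and the spread was wider among BCB-positive oocytes. The ratio of large to small was 1.83, 1.88 and 1.82 in BCB-negative oocytes (1.84 ± 0.0352) and 1.49, 1.89 and 1.54 in BCB-positive oocytes (1.64 ± 0.219). BCB-positive oocytes 1 and 3 had the lowest ratios, while BCB-positive oocyte 2 had the highest of all. As a share of all FPKM, the members made up 1.52% ± 0.0486 in the BCB-negative and 1.51% ± 0.0486 in the BCB-positive class.

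**Figure D2:**
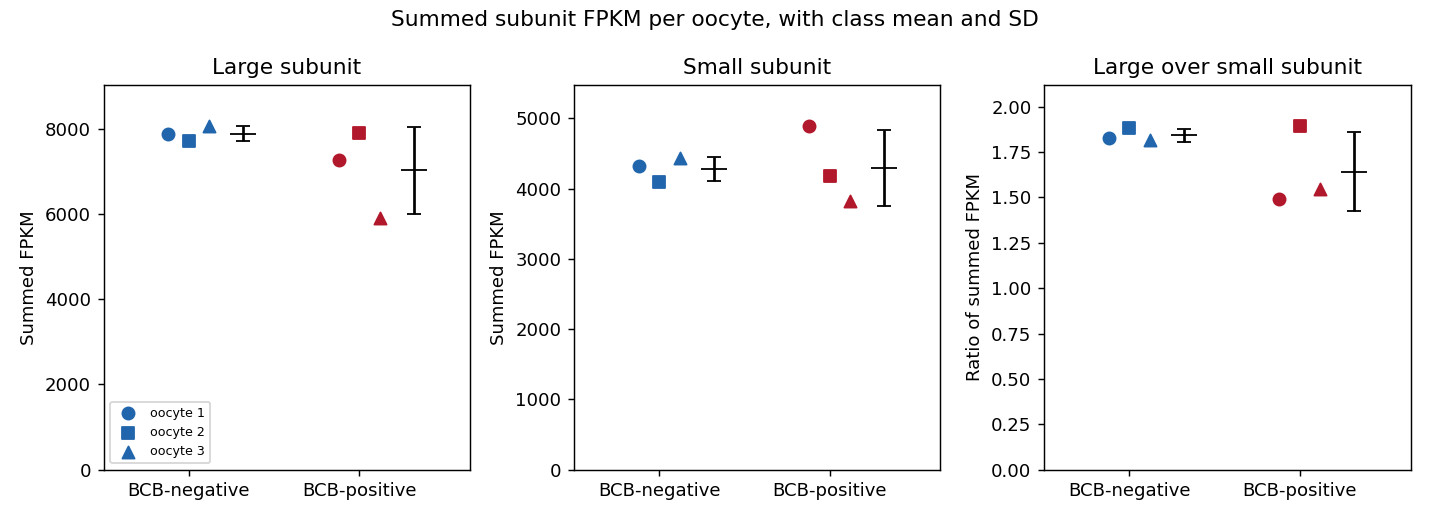
Summed FPKM of large-subunit genes and of small-subunit genes, and their ratio, in each BCB-negative (blue) and BCB-positive (red) oocyte, with the class mean and SD (n = 3 cells) beside the points. The large-subunit sum was lowest in BCB-positive oocyte 3, at 5908 FPKM, and the ratio spread from 1.49 to 1.89 among BCB-positive oocytes.

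Gene by gene, the members differed little between BCB classes. Over the 67 compared, the median difference of mean log2(FPKM + 1) was -0.08, against 0.11 over the 11493 genes, and 54 members lay within 1.5-fold. At least 1.5-fold higher in BCB-positive oocytes were 8 members, or 11.9%, beside 18.9% of all genes. At least 1.5-fold lower were 5 members, or 7.46%, beside 9.46% of all genes. A fold of 1.5 on this scale can understate the change of low genes. For MRPL22 the difference was 0.96, and 1.04 with a pseudocount of 0.1 FPKM. Both subunits had genes on either side. The large subunit had a median of -0.08 with 6 of 44 genes higher and 4 lower, and the small subunit a median of -0.10 with 2 of 22 higher and 1 lower.

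These counts rest on BCB-positive oocyte 3 and on the scaling. Without that oocyte the median over the members was 0.02, 5 were higher and 2 were lower, beside 14.6% and 10.3% of all genes. The lower count was 11 when BCB-negative oocyte 1 was left out, 8 when BCB-negative oocyte 2 was, and 12 when BCB-positive oocyte 1 or 2 was. No share of all genes was taken in these settings, so their counts have no background beside them. After scaling by size factors, which set the median difference of all genes at 0.02, 6 members were higher and 10 lower, beside 15.3% and 12.2% of all genes. Rescaled to a common sum of FPKM, where the median of all genes was 0.19, 10 were higher and 4 lower, beside 23.0% and 7.53% of all genes.

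With all oocytes and FPKM as deposited, the 8 members on the higher side were relatives of bacterial proteins. They were 6 of 26 conserved genes of the large subunit, or 23.1%, and 2 of 12 of the small subunit, or 16.7%, on either side of the 18.9% of all genes. Of the genes added in mitochondria, 0 of 18 in the large subunit and 0 of 10 in the small subunit were that much higher, and 1 was lower in each, MRPL52 and MRPS34. Medians differed less than these counts, at -0.04 and -0.08 for conserved and added genes of the large subunit and at -0.01 and -0.18 in the small subunit. Without BCB-positive oocyte 3 the conserved genes on the higher side were 3 of 26 (11.5%) and 2 of 12 (16.7%), beside 14.6% of all genes. Of the added genes, 0 of 18 and 0 of 10 were then higher. MRPL39, a gene added in mitochondria, passed 1.5-fold at 0.59 with a common sum of FPKM. It also passed at 0.63 and 0.59 on leaving out BCB-negative oocytes 1 and 3 in turn. Of other added genes, MRPS22 and MRPL48 passed 1.5-fold without BCB-positive oocyte 2, and MRPS31 without BCB-negative oocyte 2. The absence of added genes on the higher side thus depends on the oocytes used. The split was seen after the values and was not tested.

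Only 3 members were both 1.5-fold apart and without overlap between the classes, 2 of them higher, beside 5.75% of all genes, and 1 lower, beside 2.66%. With 1 oocyte fewer, non-overlap is easier to meet: the number lower was then 6, 2 and 3 on leaving out BCB-negative oocytes 1, 2 and 3 in turn, and 8, 4 and 2 for BCB-positive oocytes 1, 2 and 3. The number higher was 7 on leaving out oocyte 1 of either class and 2 or 3 otherwise. For non-overlap with an oocyte left out, no share of all genes was taken. The lower gene was MRPL12 (NCBI gene ID 100624982), the protein that forms the flexible stalk to which translation factors dock and that is also known to bind the mitochondrial RNA polymerase. It measured 47.5, 34.6 and 51.8 FPKM in the BCB-negative class and 27.5, 17.4 and 29.0 FPKM in the BCB-positive class. Every BCB-negative oocyte was above every BCB-positive oocyte, with a difference of -0.85 (SD 0.35), and of -0.97 without BCB-positive oocyte 3. The class sums, not scaled for depth, were 362 expected counts (95% exact Poisson interval 325.7 to 401.3) and 232 (203.1 to 263.9). These intervals cover counting error only and leave out the spread between oocytes. When every oocyte was brought to a common sum of FPKM, the difference was -0.75 but the classes overlapped.

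MRPL9 (gene ID 100622852), a conserved protein that in bacteria reaches out from the base of the side arm, measured 97.1, 49.5 and 70.2 FPKM in the BCB-negative class and 117, 106 and 144 FPKM in the BCB-positive class. The classes did not overlap, with a difference of 0.79 (SD 0.37), which was 0.55 without BCB-negative oocyte 2. In the annotation MRPL9 overlaps OAZ3, which had a mean of 0.147 FPKM. MRPL22 (gene ID 100739015), which lines the tunnel through which the new protein leaves, measured 8.71, 4.29 and 8.66 FPKM and then 10.4, 10.4 and 26.9 FPKM. BCB-positive oocyte 3 was far above the rest, and the difference of 0.96 (SD 0.64) was 0.52 without it. MRPL22 overlaps a pseudogene, so its reads are uncertain.

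Another 3 members did not overlap between classes but lay within 1.5-fold. Without the limit on size, 4 members were wholly higher, beside 7.44% of all genes, and 2 wholly lower, beside 4.03%. MRPL39, added in mitochondria, measured 42.2, 25.8 and 40.1 FPKM and then 53.5, 51.3 and 46.2 FPKM (difference 0.50, SD 0.28, and 0.28 without BCB-negative oocyte 2). MRPS31 measured 169, 177 and 105 FPKM and then 181, 184 and 245 FPKM (0.45, SD 0.34, and 0.22 without BCB-negative oocyte 3). Its classes came within a few FPKM of each other. MRPS18A, of the large subunit, measured 57.8, 64.7 and 77.9 FPKM and then 55.0, 57.4 and 45.7 FPKM (-0.33, SD 0.19, and -0.22 without BCB-negative oocyte 3).

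**Figure D3:**
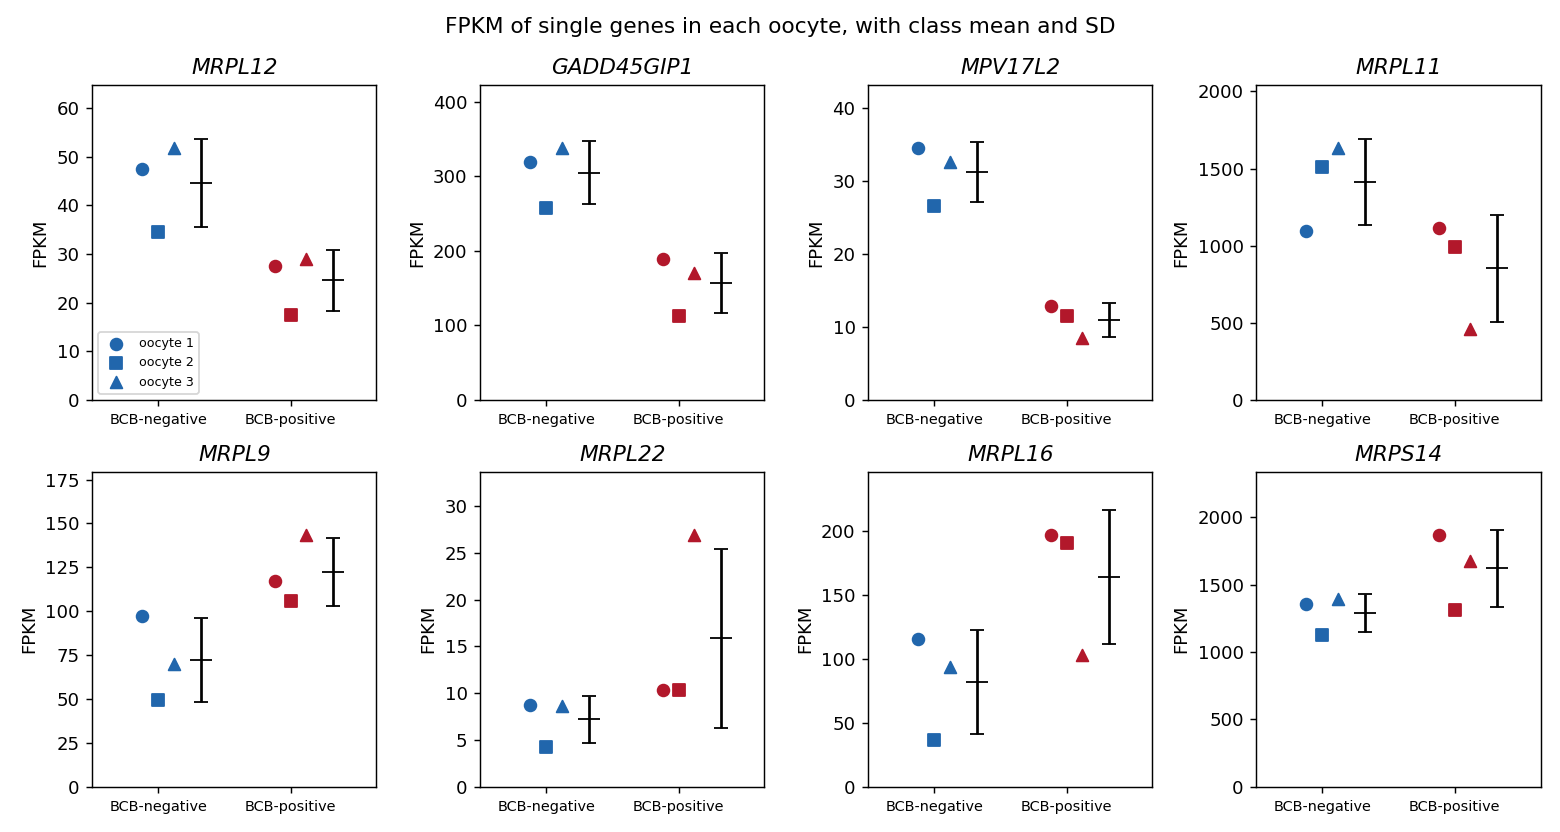
FPKM of 8 genes in each BCB-negative (blue) and BCB-positive (red) oocyte, with the class mean and SD (n = 3 cells) beside the points and every axis from 0. MRPL12, GADD45GIP1 and MPV17L2 had all BCB-negative oocytes above all BCB-positive ones and MRPL9 and MRPL22 the reverse, whereas MRPL11, MRPL16 and MRPS14 overlapped.

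The stalk and its base are the site where elongation factors are recruited. MRPL11, the stalk's base and the most abundant large-subunit gene, measured 1098, 1509 and 1634 FPKM in the BCB-negative class and 1114, 990 and 458 FPKM in the BCB-positive class. BCB-negative oocyte 1 lay just below BCB-positive oocyte 1, so the classes overlapped. The difference was -0.81 (SD 0.54), and -0.41 without BCB-positive oocyte 3. MRPL10, which anchors MRPL12, was the most variable member with at least 5 FPKM, at 11.4, 34.9 and 46.9 FPKM and then 14.01, 76.3 and 6.96 FPKM (-0.40, SD 1.40). Its direction was not stable, at 0.30 without BCB-positive oocyte 3 and -1.34 when oocyte 2 of that class was left out. Thus 2 of the 3 stalk genes were at least 1.5-fold lower with all oocytes, beside 9.46% of all genes. Without BCB-positive oocyte 3 only 1 was, MRPL12, beside 10.3%.

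Around the peptidyl transferase centre, where peptide bonds form, 2 of 5 listed genes were higher and 0 lower. Over all genes these shares were 18.9% and 9.46%. MRPL16 had the largest difference of any member, at 115, 36.6 and 93.3 FPKM in the BCB-negative class and 197, 191 and 103 FPKM in the BCB-positive class. BCB-positive oocyte 3 lay inside the BCB-negative range, and the difference of 1.09 (SD 0.71) was 1.39 without it and 0.60 if BCB-negative oocyte 2 was left out. MRPL3 measured 96.3, 66.6 and 54.6 FPKM and then 74.4, 97.4 and 228 FPKM. Its difference of 0.74 was 0.27 without BCB-positive oocyte 3, and leaving out BCB-negative oocyte 3 gave 0.56. In the annotation MRPL3 overlaps a pseudogene. MRPL2, MRPL4 and MRPL27 had differences of -0.09, -0.24 and 0.13, which were -0.15, 0.09 and 0.06 without BCB-positive oocyte 3.

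At the exit tunnel, 2 of 5 listed genes were higher with all oocytes, MRPL22 and MRPL47, and 0 without BCB-positive oocyte 3. MRPL4, given above, was not in this list. Over all genes the shares higher were 18.9% and 14.6%. MRPL47, which lies by the tunnel's mouth, measured 39.96, 63.1 and 50.7 FPKM and then 38.3, 78.5 and 170 FPKM (difference 0.66, SD 0.78). The last value belonged to BCB-positive oocyte 3, without which the difference was 0.12. Leaving out oocyte 1 of the BCB-negative class gave 0.49, and oocyte 1 of the BCB-positive class 1.18. In the annotation MRPL47 overlaps ACTL6A, which had a mean of 47.1 FPKM. MRPL17, MRPL24 and MRPL45, the protein that ties the ribosome to the inner membrane, had differences of 0.01, 0.37 and 0.14, and of -0.07, 0.09 and 0.00 without BCB-positive oocyte 3.

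The central protuberance, the large subunit's crown that contacts the tRNAs and the small subunit's head, had 0 of 7 genes higher and 2 lower. Over all genes these shares were 18.9% and 9.46%. MRPL52 measured 194, 160 and 254 FPKM in the BCB-negative class and 163, 127 and 67.8 FPKM in the BCB-positive class, and MRPL55 measured 404, 467 and 497 FPKM and then 422, 266 and 167 FPKM. Both were lowest in BCB-positive oocyte 3 and both overlapped between classes. Their differences of -0.83 and -0.77 were -0.47 and -0.44 without that oocyte. MRPL46 was the steadiest named gene of the crown, between 165 and 219 FPKM (-0.08, SD 0.15, and 0.02 without BCB-positive oocyte 3). MRPL18 had a difference of 0.39, and of 0.60 without that oocyte. MRPL38, MRPL40 and MRPL48 had differences of -0.34, -0.54 and 0.19, and of -0.39, -0.18 and -0.16 without it.

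In the small subunit, the 2 genes on the higher side were MRPS7 and MRPS9, which are conserved proteins of the head. MRPS7 measured 41.5, 18.0 and 18.4 FPKM and then 57.4, 30.0 and 43.7 FPKM (0.79, SD 0.57), and the difference was 0.57 without BCB-positive oocyte 1. In the annotation it overlaps MIF4GD and GGA3, which had means of 64.9 and 13.6 FPKM. MRPS9 measured 12.1, 5.23 and 1.16 FPKM and then 6.34, 12.5 and 13.0 FPKM (0.99, SD 1.00). Leaving out oocyte 3 of the BCB-negative class gave 0.30, and oocyte 1 of that class 1.60. MRPS34 was the gene on the lower side, at 137, 132 and 181 FPKM and then 150, 81.0 and 68.0 FPKM (-0.65, SD 0.45), and -0.42 without BCB-positive oocyte 3. Leaving out oocytes 1 and 2 of that class in turn gave -0.99 and -0.55, and oocyte 3 of the BCB-negative class -0.51.

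MRPS22, MRPS7 and MRPL50 have been linked to ovarian failure in humans. MRPS22 measured 42.4, 31.5 and 36.7 FPKM in the BCB-negative class and 39.3, 19.1 and 90.5 FPKM in the BCB-positive class. BCB-positive oocytes 2 and 3 were the lowest and the highest of all, so the difference of 0.16 had an SD of 0.79. It was -0.40 without BCB-positive oocyte 3. In the annotation MRPS22 overlaps COPB2, which had a mean of 112 FPKM, so its reads are uncertain. MRPL50 lay between 30.4 and 69.1 FPKM with overlapping classes (-0.04, SD 0.49, and -0.17 without BCB-positive oocyte 3).

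Beyond these roles, MRPL15, a conserved protein of the large subunit, was the remaining gene on the higher side, at 64.2, 36.2 and 63.2 FPKM and then 43.2, 87.5 and 141 FPKM. The classes overlapped, and its difference of 0.61 was 0.22 without BCB-positive oocyte 3. Leaving out BCB-negative oocyte 2 gave 0.35, and BCB-positive oocyte 1 gave 1.06. Without BCB-positive oocyte 3, MRPL18 at 0.60 and MRPS35 at -0.75 passed 1.5-fold, which they did not with all oocytes (0.39 and -0.28).

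**Figure D4:**
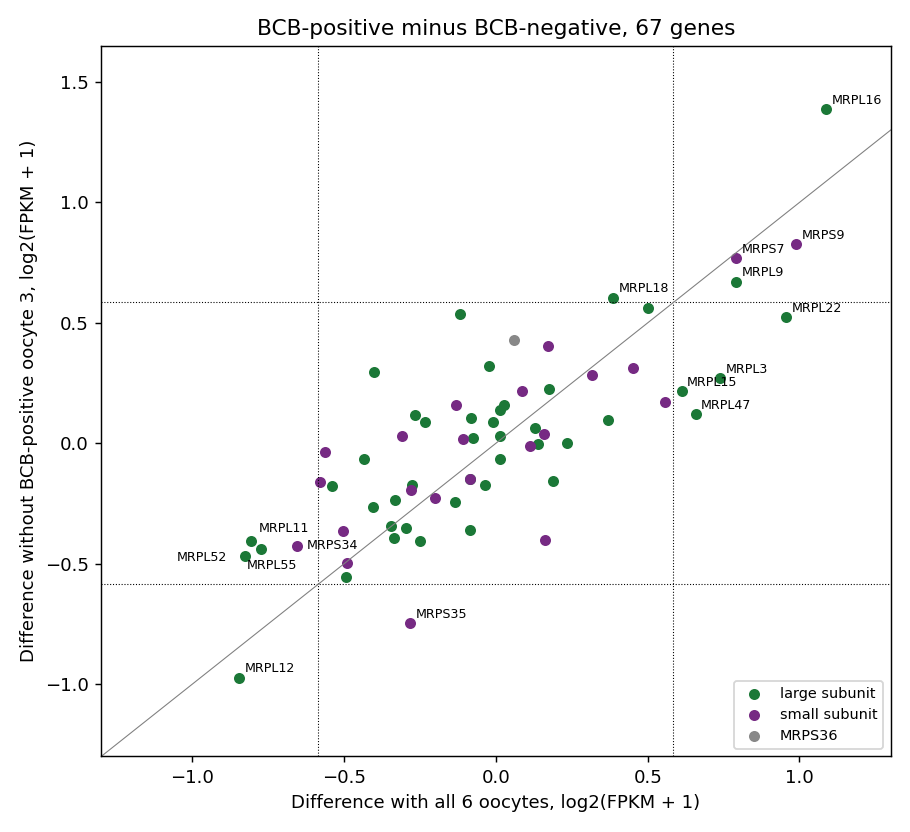
Difference of mean log2(FPKM + 1), BCB-positive minus BCB-negative, for each of 67 genes with all 6 oocytes (horizontal axis) and without BCB-positive oocyte 3 (vertical axis), with dotted lines at 1.5-fold and a diagonal of equality. MRPL16, MRPS9, MRPS7, MRPL9 and MRPL12 lie past 1.5-fold on both axes, while MRPL22, MRPL3, MRPL15, MRPL47, MRPL52, MRPL11, MRPL55 and MRPS34 do so only with all oocytes.

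Oocytes of a class differed from each other about as much at the members as over all genes with at least 10 FPKM. Genes were not matched further by level. The median SD between oocytes of a class was 0.46 over the 64 members with at least 10 FPKM, against 0.45 over the 5482 genes above that limit, and 0.36 for both without BCB-positive oocyte 3. After MRPL10, the most variable were MRPL53, MRPS9 and MRPL48. MRPL53 measured 25.2, 8.02 and 23.7 FPKM and then 33.1, 19.1 and 5.66 FPKM (SD 1.05). MRPL48 measured 20.1, 16.5 and 4.98 FPKM and then 14.9, 7.56 and 23.0 FPKM (SD 0.87). In neither did the classes separate.

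Against the mean of the other 5 oocytes, BCB-positive oocyte 3 was off by a median of -0.15 at the members and of 0.18 at all genes. It gave the lowest value for 25 members, or 37.3%, against 18.4% of all genes, and the highest for 15, or 22.4%, against 32.6%. Among the 33 members with a transcript of under 1000 bases, the median offset was -0.27 and 23 lay below 0. Among the 34 longer members it was 0.02 and 17 lay below 0. All genes showed the same order, at -0.16 for shorter and 0.25 for longer genes. Members are short, with a median length of 1017 bases against 1815 bases. The part of length or RNA quality in the offset was not tested.

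Proteins of the mitochondrial ribosome that carry other symbols gave 2 higher and 1 lower among 4 compared, beside 18.9% and 9.46% of all genes. GADD45GIP1 (gene ID 100524669), a large-subunit protein also known as CRIF1 that lies near the tunnel exit, measured 319, 258 and 338 FPKM in the BCB-negative class and 189, 112 and 170 FPKM in the BCB-positive class. The classes did not overlap, with a difference of -0.98 (SD 0.32), and of -1.05 without BCB-positive oocyte 3. DAP3, a GTP-binding protein of the small subunit's head, measured 4.70, 1.18 and 1.36 FPKM and then 4.98, 5.17 and 2.33 FPKM (0.69, SD 0.65). With a pseudocount of 0.1 FPKM its difference was 0.95. CHCHD1 measured 15.6, 4.95 and 4.81 FPKM and then 15.1, 9.19 and 15.9 FPKM (0.76, SD 0.68). Both overlapped between classes. Leaving out 1 BCB-negative oocyte in turn gave differences from 0.44 to 1.13 for DAP3 and from 0.50 to 1.26 for CHCHD1. PTCD3 had a difference of 0.21 (SD 0.23).

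Factors that assemble the ribosome had a median difference of 0.35 over 20 genes, against 0.11 over all genes. Of the 20, 5 were higher and 2 lower, beside 18.9% and 9.46% of all genes. The median was 0.18 without BCB-positive oocyte 3, against 0.05 over all genes. Then 3 were higher and 2 lower, beside 14.6% and 10.3% of all genes. MPV17L2 (gene ID 100519592), an inner membrane protein needed for building the particle, measured 34.5, 26.6 and 32.7 FPKM in the BCB-negative class and 12.9, 11.5 and 8.47 FPKM in the BCB-positive class. The classes lay far apart, with a difference of -1.44 (SD 0.24), and of -1.28 without BCB-positive oocyte 3. MRM3, which methylates the large ribosomal RNA, measured 8.86, 9.16 and 10.3 FPKM and then 13.0, 24.8 and 12.2 FPKM. It did not overlap, and its difference of 0.69 (SD 0.39) was 0.38 without BCB-positive oocyte 2. TRMT2B, a methyltransferase of mitochondrial RNA, measured 4.41, 4.21 and 4.25 FPKM and then 5.79, 5.42 and 8.68 FPKM (0.50, SD 0.23), with 0.32 without BCB-positive oocyte 3.

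Among 19 mitochondrial translation factors the median difference was 0.28. Higher were 2 (10.5%) and lower 1 (5.26%), beside 18.9% and 9.46% of all genes. Without BCB-positive oocyte 3 the median was 0.04 with 2 higher and 2 lower, beside 14.6% and 10.3%. MTRF1L, a factor that ends translation at stop codons, measured 8.87, 11.4 and 3.94 FPKM and then 13.4, 13.3 and 11.99 FPKM. It did not overlap, and the difference of 0.72 was 0.33 without BCB-negative oocyte 3. Of 9 mitochondrial aminoacyl-tRNA synthetases compared, 3 were higher (33.3%) and 0 lower, beside 18.9% and 9.46% of all genes. Without BCB-positive oocyte 3, 1 was higher, or 11.1%, beside 14.6%. IARS2, which charges isoleucine tRNA, measured 1.35, 1.47 and 1.18 FPKM and then 3.05, 3.41 and 6.86 FPKM, without overlap (1.16, SD 0.37). With a pseudocount of 0.1 FPKM its difference was 1.57.

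Nuclear-encoded subunits of the respiratory chain, the complexes that mitochondrial translation feeds, had a median of -0.30 over 59 genes. Higher were 2 (3.39%) and lower 11 (18.6%), beside 18.9% and 9.46% of all genes. Without BCB-positive oocyte 3 the median was -0.03 with 3 higher and 4 lower, beside 14.6% and 10.3%. None of the 59 was wholly apart between classes. The largest difference was that of the complex I gene NDUFS6 (-1.63, SD 1.21). It measured 12.9, 58.3 and 6.26 FPKM and then 2.76, 4.26 and 9.14 FPKM. BCB-negative oocyte 2 was by far the highest, and without it the difference was -0.78. Cytosolic ribosomal protein genes had a median of -0.31 over 72 genes. Higher were 2 (2.78%) and lower 15 (20.8%), beside 18.9% and 9.46% of all genes. Without BCB-positive oocyte 3 the median was 0.00 with 0 higher and 3 lower, beside 14.6% and 10.3%. In BCB-positive oocyte 3 the median deviation from the 6-oocyte mean was -0.74 for cytosolic ribosomal proteins and -0.66 for the respiratory chain. For the mitochondrial large and small subunits it was -0.09 and -0.13, as the plot of deviations by list shows. Whether the lists differ in this was not tested.

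**Figure D5:**
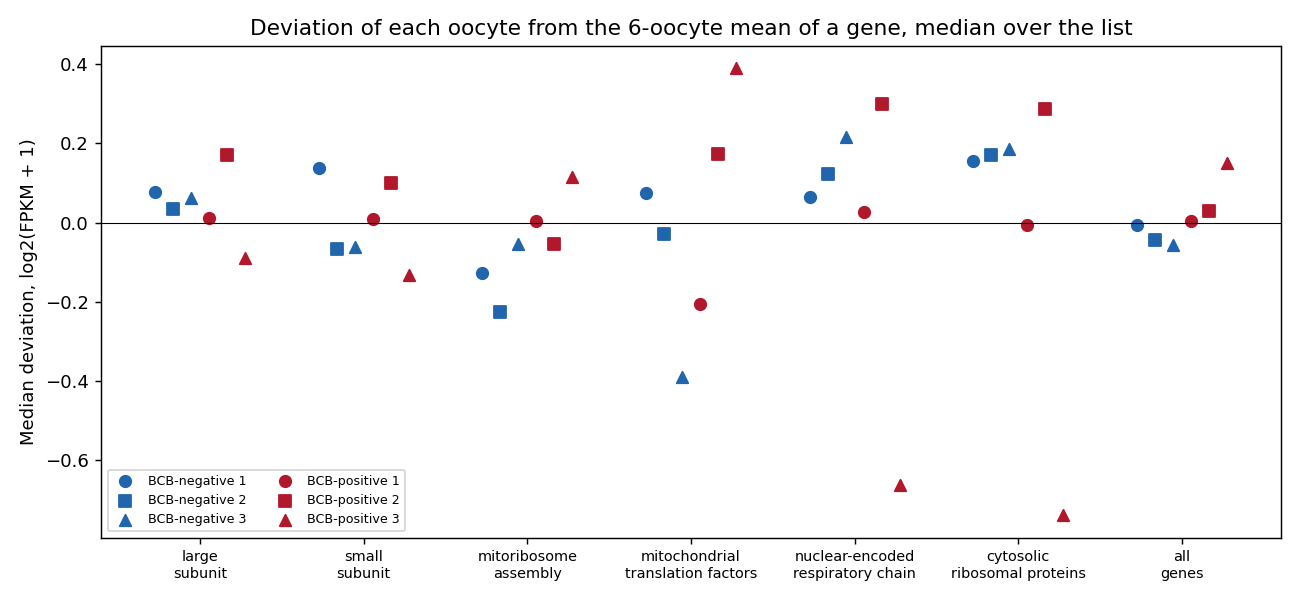
Median over each gene list of an oocyte's deviation from the 6-oocyte mean of log2(FPKM + 1), with BCB-negative oocytes in blue and BCB-positive oocytes in red. BCB-positive oocyte 3 lay at -0.74 for cytosolic ribosomal proteins and -0.66 for the respiratory chain, but at -0.09 and -0.13 for the large and small mitochondrial subunits.

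Transcript use could be compared for 22 members with more than 1 listed transcript and 5 FPKM or more throughout, and in 11 of them 1 transcript held at least 80% in every oocyte. A shift of at least 20 percentage points without overlap was seen in 1 of these 22 members, beside 3.53% of the 1956 genes whose transcripts could be compared in this way. In MRPS10, a small-subunit head protein, the transcript of 2173 bases held 93.0%, 0.609% and 85.0% of the gene's FPKM in BCB-negative oocytes and 100%, 100% and 97.2% in BCB-positive oocytes. BCB-negative oocyte 2 alone used almost only a transcript of 2183 bases, so the class difference of 39.5 points had an SD of 36.2 points and was 10.1 points without that oocyte. The transcripts differ little in length, and the shares rest on the estimated division of shared reads.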

How the data were processed

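Poly(dT)-primed, PCR-amplified cDNA of 6 single oocytes was sequenced in 1 lane, per the labels' protocols. Per the submitters' processing notes, BWA, Cufflinks, RSEM and the build Sscrofa10.2 were used, and the sources used here do not give their roles, order or versions. For each gene and transcript the deposited tables hold an expected count, an FPKM and a length. The deposited expected counts divide shared reads by estimation, so they are often not whole. FPKM values were computed by the authors, corrected for length and depth, and no replicates were pooled. Per the file headers, lengths are in columns of their own beside the expected count and FPKM.

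Symbols came from a RefSeq table of Sscrofa11.1 matched by NCBI gene ID (13936 of 19300 IDs), used for names and for which genes overlap, and no coordinates are given because the builds differ. Some genes with a current symbol may lie under other IDs. Members and lists were chosen with earlier results of these data known. The measure was the difference of mean log2(FPKM + 1) between classes over the 11493 genes that averaged 1 FPKM or more. A gene was counted at 1.5-fold, or where the 3 oocytes of a class all lay beyond those of the other. The SD beside a difference is pooled over the classes, on the log2 scale. No test was made, since each class is 1 sample of 3 cells. The counting was tested on simulated data, in which no oocyte stood apart. The spread set between simulated oocytes was below the median SD of 0.54 over all genes here. The simulation therefore gives no error rate for these data.

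Genes were named by rule. The rule took members past 1.5-fold without overlap, the 4 most and 3 least abundant of each subunit, and the 4 most variable with at least 5 FPKM. It also took members of the role lists, ribosomal proteins with other symbols, genes with a known ovarian role, and up to 3 genes from each related list. Members past 1.5-fold with overlap, and members without overlap within 1.5-fold, were named after their values were seen. Alternatives were a pseudocount of 0.1 FPKM, size factors, a common sum of FPKM, CPM computed here from the expected counts, the log2 ratio of the class means, other limits on low values, and leaving out each oocyte. Subunits taken by symbol, and summing gene IDs with the same transcript records, were added after seeing the data. Python 3.11.15, pandas 2.3.3, numpy 2.4.6 and scipy 1.17.1 were used.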

Additional observations from a re-analysis of the deposited data

How the results depend on the processing

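Under size factors 10 members were at least 1.5-fold lower in BCB-positive oocytes, beside 12.2% of all genes. The number lower without overlap was 2 under size factors, 2 with CPM and 0 with a common sum of FPKM, and the number higher without overlap was 4 with a common sum. Leaving out 1 oocyte at a time gave 5 to 10 members higher, 2 to 12 lower, 2 to 7 higher without overlap and 2 to 8 lower without overlap, where fewer oocytes also make non-overlap easier. The same gave medians from -0.11 to 0.073 for the small subunit and from 0.18 to 0.48 for the assembly factors. No share of all genes was taken for the counts without overlap in these settings. At 1.5-fold with an oocyte left out, it was taken only without BCB-positive oocyte 3. Among the differences of at least 1.5-fold, that of GUF1, a mitochondrial translation factor, reversed to -0.10 without BCB-positive oocyte 3. Smaller differences changed sign more often: between 6 and 16 of 67 members did so on leaving out 1 oocyte, and the 16 without BCB-positive oocyte 3 included MRPL10, MRPL48 and MRPL4. The cause was not tested. No paired analysis was possible because no result comes from a test and each class is 1 sample of 3 cells. Depth limits MRPL1, MRPS5, MRPS6 and other genes with few counts.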

Other observations

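Another 4 gene IDs in the files carry transcript records that the RefSeq table now assigns to mitochondrial ribosomal protein genes, so part of the signal of these genes may stand outside the members. The ID holding records of MRPL55 measured 188, 212 and 254 FPKM in the BCB-negative class and 190, 172 and 107 FPKM in the BCB-positive class. Summed with the member, the difference of mean log2(FPKM + 1) was -0.68, against -0.77 for the member alone. The ID holding records of MRPS23 measured 104, 74.95 and 74.7 FPKM and then 62.1, 84.2 and 115 FPKM, with a summed difference of 0.07 against 0.11. For MRPS18A the summed difference was -0.34 against -0.33. An ID holding records of MRPS16 was at 26.1 FPKM in BCB-negative oocyte 2 and at 0 in every other oocyte.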
